A study of Homo sapiens with 12 samples.

Results

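HK-2 cells that received only the control vehicle were compared between 48 h and 12 h of exposure to it, which gives the change with time in culture of cells without the test compound. The comparison used 6 of the 12 arrays of the series, namely the 3 labelled as control samples at 48 h and the 3 labelled as control samples at 12 h, chosen by their titles. HK-2 is an immortalised epithelial line made from the proximal tubule of the human kidney. The cells of every group were grown in a mixture of DMEM and Ham's F12 with 5 mM glucose and, per the labels, EGF (10 ng/ml), hydrocortisone (36 ng/ml), insulin (5 µg/ml), transferrin and selenite, with no serum named. They were seeded 24 h before treatment with 2 ml of medium per well and treated at about 90% confluency. No change of medium between treatment and harvest is described in the labels used here, and the vehicle is not named there. The other 6 arrays, cells treated with Ra for 12 h or 48 h with 3 arrays each, enter only where the change with time in control cells is set against that in Ra-treated cells; the labels used here do not say what Ra is or its dose.

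Cells that lack amino acids, or whose endoplasmic reticulum holds too much unfolded protein, phosphorylate the initiation factor eIF2, which lowers general translation and raises translation of the transcription factor ATF4. ATF4 then drives genes for amino acid uptake and synthesis, for tRNA charging and for further transcription factors such as ATF3 and DDIT3, while a parallel unfolded protein response, run by the sensors ERN1 and ATF6, raises chaperones of the endoplasmic reticulum. Proliferation runs on other programmes: E2F factors drive genes of DNA replication, and a later programme drives genes of G2 and mitosis. Cultured proximal tubule cells slow their division once they fill the dish, and they take up amino acids and glucose from the medium throughout.

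Total RNA was labelled and hybridised to Affymetrix 3′ expression arrays, and the deposited values are log2 levels made by the authors with GCRMA, in which a difference of 1 is a 2-fold change. A gene was tested where its chosen probe set reached 5 log2 units on at least 3 of the 12 arrays, which left 10050 genes. The number of arrays limits the precision, and the SD over the 3 arrays of a gene had a median of 0.12 at 12 h and 0.22 at 48 h. The correlation over genes was 0.991 to 0.9929 among the 12 h arrays and 0.9602 to 0.9835 among the 48 h arrays. Control 48 h replicate 3 stood nearest to the 12 h arrays. It had 740 genes at least 2-fold from the 12 h mean, against 1915 and 1465 on replicates 1 and 2. List counts which move by over 1.5 times without it are therefore given both ways, except some counts that are 3 or fewer both ways. Among the Ra arrays, Ra 48 h replicate 2 stood apart, with a median of -0.649 against the control 12 h mean. RNA integrity was read from the array's control probe sets as the 3′ minus the 5′ level. For ACTB this difference was 0.91 ± 0.10 (SD, n = 3) at 12 h and 1.07 ± 0.15 at 48 h (two-sided exact permutation p = 0.3, where 3 against 3 cannot go below 0.1). For GAPDH it was -0.04 ± 0.03 and -0.02 ± 0.04 (exact permutation p = 0.7). No marker of fibroblasts, endothelium, immune cells, podocytes or distal nephron was called between the times. Of these lists, 3 of 9, 1 of 10, 1 of 9, 3 of 6 and 0 of 9 genes passed the filter. The reference genes GAPDH and ACTB differed by -0.02 ± 0.06 and -0.18 ± 0.08 (SE), and neither passed the test.

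Between 12 h and 48 h, 3334 of 10050 genes changed at an adjusted p under 0.05, or 33.2% of those tested (limma, Benjamini-Hochberg over all genes). Of these, 1665 were higher at 48 h (16.6%) and 1669 were lower (16.6%), and the median difference over all genes was 0.005. At least 2-fold changes numbered 1087 among the called genes, 580 higher and 507 lower, and 104 rose and 59 fell at least 4-fold. The arrays of the 2 times did not overlap for 5108 genes (50.8%), and for 1086 of the 1087 called 2-fold changes. At an unadjusted p under 0.05 the count was 4602. Leaving out an array moved the count, to 1554, 1554 or 1429 without 12 h replicate 1, 2 or 3, to 2654, 1782 or 4583 without 48 h replicate 1, 2 or 3. Of the 1087 2-fold calls, 1082 were still called in the same direction without 48 h replicate 3. With a spread shared over all 12 arrays, 1955 genes were called, of which 1897 were also in the 6-array result. The labels name biological replicates but not how the cultures were separated, so the p-values measure the spread between these samples only. They give no harvest or scan batch, and any difference in handling between the times cannot be told apart from time. In bulk RNA, a change in the share of cells that express a gene and a change per cell cannot be told apart either.

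**Figure D1:**
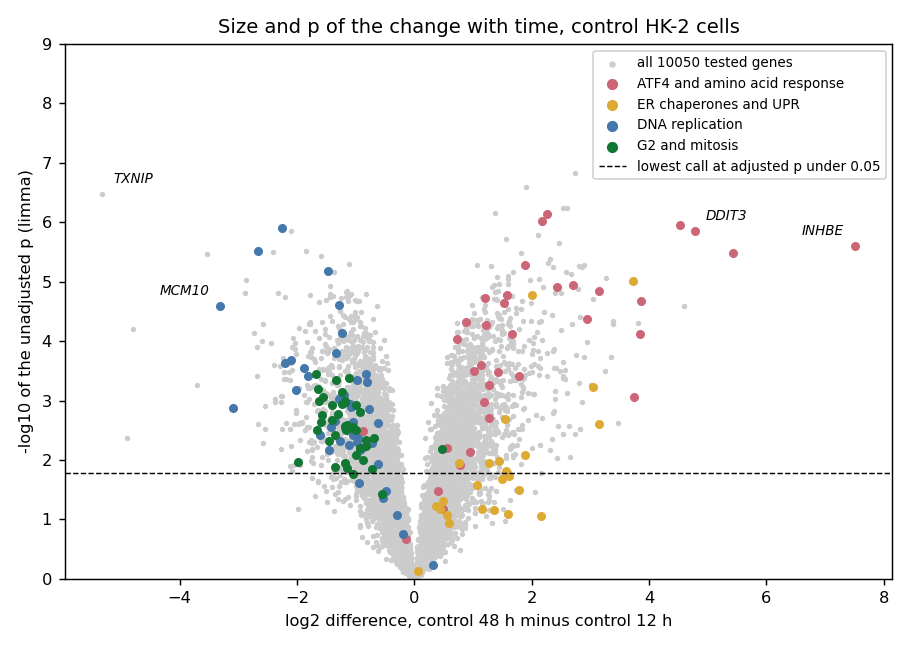
Size of the change with time (x axis, log2 difference of control 48 h minus control 12 h) against the unadjusted limma p (y axis, as -log10) for 10050 genes in control HK-2 cells, 1 point a gene, with 4 gene lists in colour and the called genes above the dashed line. Most ATF4 genes lie to the right, up to INHBE at 7.51, most DNA replication and mitosis genes lie to the left, and TXNIP at -5.32 is the lowest.

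The ATF4 and amino acid genes rose together in control cells between 12 h and 48 h. Of 35 measured members of 40, 31 were higher and 1 was lower among the genes called, with a median difference of 1.53 against 0.005 over all genes. The mean level of the 35 genes, relative to the 12 h mean, was 2.12, 2.12 and 1.87 on the 48 h arrays, so that all 3 lay far above the 12 h arrays (between -0.31 and 0.17). With 1 control array left out, 27 to 31 members were called higher.

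Among the transcription factors, ATF4 itself, whose protein is controlled mainly by translation, stood at 12.29, 11.73 and 12.37 at 12 h and 13.20, 13.28 and 13.31 at 48 h (difference 1.13 ± 0.17 SE, adjusted p = 0.00512). ATF3, a bZIP factor that ATF4 induces, stood at 6.96, 5.51 and 7.14 at 12 h and 11.87, 12.19 and 11.86 at 48 h. The difference of 5.44 ± 0.41 (adjusted p = 0.0015) is 43.4-fold, and the 48 h arrays lay within a narrow band while the 12 h arrays spread. DDIT3, also called CHOP, a factor tied to cell death under prolonged stress, stood at 8.55, 8.16 and 8.44 at 12 h and 13.78, 13.29 and 12.44 at 48 h and rose by 4.79 ± 0.32 (adjusted p = 0.00107). All 3 of its 48 h arrays were more than 3 log2 units above its highest 12 h array. The C/EBP factors CEBPB and CEBPG, partners of ATF4 on DNA, rose by 1.58 ± 0.15 and 1.67 ± 0.20. ATF5, which belongs to the same family, was the only called member that fell, by 0.87 ± 0.20 (adjusted p = 0.0182). ATF5 was not called on leaving out any single 12 h array or 48 h replicate 2 (adjusted p up to 0.0715).

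Feedback and stress effectors rose as well. TRIB3, a pseudokinase that restrains ATF4 and DDIT3, was high already at 12 h and rose by 1.89 ± 0.15, with values of 11.51, 11.06 and 11.09 at 12 h and 13.00, 13.32 and 13.00 at 48 h. SESN2, a leucine sensor that restrains mTORC1, rose by 2.17 ± 0.14, and DDIT4, another inhibitor of mTORC1, by 0.88 ± 0.10. CHAC1, which degrades glutathione, stood at 4.57, 3.19 and 4.55 at 12 h and 7.83, 7.35 and 8.69 at 48 h and rose by 3.85 ± 0.47 (adjusted p = 0.00342). Its 12 h arrays lie under 5 log2 units, where GCRMA's background model sets the level, so its fold change depends on that model.

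Secreted products gave the largest rise of all. INHBE, the inhibin beta E chain, stood at 5.56, 3.30 and 4.31 at 12 h and 12.36, 11.92 and 11.42 at 48 h. Its difference was 7.51 ± 0.55 (adjusted p = 0.00147), and the lowest 48 h array was almost 6 log2 units above the highest 12 h array, on which alone the 12 h level passed 5. GDF15, a stress hormone that lowers food intake, rose by 2.43 ± 0.22, with values of 11.19, 10.49 and 10.54 at 12 h and 13.36, 13.33 and 12.84 at 48 h. STC2, a secreted glycoprotein, rose by 3.15 ± 0.30, and VEGFA, the main angiogenic growth factor, by 2.26 ± 0.14.

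Enzymes of amino acid and one-carbon metabolism rose with the regulators. CTH, which makes cysteine from cystathionine, stood at 7.71, 6.95 and 7.21 at 12 h and 12.14, 12.07 and 11.23 at 48 h and rose by 4.53 ± 0.29 (adjusted p = 0.00107). CBS, the enzyme before it in the same pathway, rose by 1.27 ± 0.27. ASNS, asparagine synthetase, rose by 2.94 ± 0.33, with values of 9.52, 8.60 and 9.68 at 12 h and 12.35, 12.55 and 11.73 at 48 h. In serine synthesis PHGDH, PSAT1 and PSPH rose by 1.27 ± 0.21, 0.56 ± 0.15 and 1.53 ± 0.16. In the mitochondrial folate pathway SHMT2, MTHFD2 and ALDH1L2 rose by 1.42 ± 0.22, 1.20 ± 0.12 and 3.75 ± 0.68. The 12 h level of ALDH1L2 was under 5, and its size rests on the background model. For proline synthesis, PYCR1 rose by 0.95 ± 0.26 while ALDH18A1 differed by -0.15 ± 0.11 and did not pass. CBS was not called on leaving out 12 h replicate 1 or 2 (adjusted p up to 0.0591). PSAT1 was not called on leaving out any single 12 h array or 48 h replicate 2 (adjusted p up to 0.097). PYCR1 was not called on leaving out any single 12 h array or 48 h replicate 1 or 2 (adjusted p up to 0.101).

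Amino acid transporters rose by amounts that differed widely. SLC7A11, the cystine/glutamate exchanger, stood at 8.20, 6.74 and 8.21 at 12 h and 11.50, 11.75 and 11.47 at 48 h and rose by 3.86 ± 0.39 (adjusted p = 0.00225). SLC3A2, the heavy chain it shares with SLC7A5, rose by 2.71 ± 0.25, and SLC7A5 by 1.78 ± 0.28. SLC7A1, the cationic amino acid transporter, rose by 1.01 ± 0.15, SLC1A4 by 1.18 ± 0.22 and SLC38A2 by 0.72 ± 0.09. The glutamine carrier SLC1A5 differed by 0.40 ± 0.15 and did not pass. The arrays of the 2 times did not overlap for SLC7A11, SLC3A2, SLC7A5, SLC7A1, SLC1A4 or SLC38A2, as for 50.8% of all genes. For SLC7A11 this was part of the rule that picked it.

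A short element read by ATF4 with C/EBP partners has the core TGATGNAA. In RefSeq promoter windows (GRCh38.p14, 250 bases before to 50 after each gene's start, both strands), it was found in 5 of the 24 higher members that have a window, ATF3, CHAC1, ASNS, SLC3A2 and SLC7A1 (20.8%), against 3.67% of the windows of 27305 genes and 1.63% of those of 8361 tested genes. The match is a description of letters and not evidence of binding. Stretches around the match that lie before the start are shown for 3 of them because their genes rose by 5.44 ± 0.41, 3.85 ± 0.47 and 2.94 ± 0.33, with the match in capitals, 5′ to 3′ along the gene's strand.
ATF3 promoter, chr1:212565190-212565249, plus strand: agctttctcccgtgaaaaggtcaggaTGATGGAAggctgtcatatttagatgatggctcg
CHAC1 promoter, chr15:40953236-40953295, plus strand: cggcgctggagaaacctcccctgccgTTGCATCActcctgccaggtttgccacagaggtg
ASNS promoter, chr7:97872443-97872502, minus strand: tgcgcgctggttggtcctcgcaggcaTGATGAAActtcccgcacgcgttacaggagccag

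**Figure D2:**
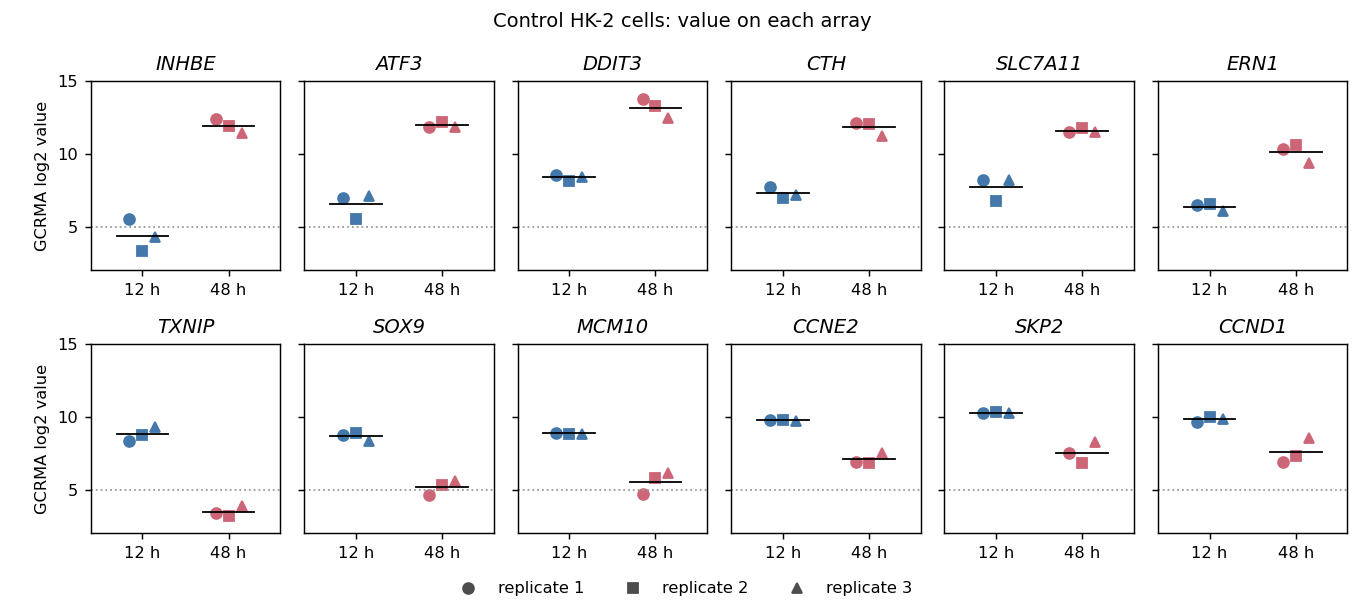
GCRMA log2 value (y axis) on each control array for 6 genes that rose and 6 that fell, by time (x axis), with a symbol for each replicate number and a bar at the mean of 3 arrays. The dotted line marks 5 log2 units, under which the background model sets the level. In every panel the arrays of the 2 times do not overlap, as for 50.8% of all genes. For every gene but CCND1 this was part of the rule that picked it.

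Charging enzymes for tRNA moved in both directions. Of 17 measured aminoacyl-tRNA synthetases of 20, 11 rose and 2 fell, with a median of 0.59. The rises were led by AARS1 (alanine) at 2.12 ± 0.33, WARS1 (tryptophan) at 1.69 ± 0.43, GARS1 (glycine) at 1.63 ± 0.26 and SARS1 (serine) at 1.57 ± 0.23. AARS1 stood at 9.55, 9.03 and 9.55 at 12 h and 12.06, 11.66 and 10.76 at 48 h, and 48 h replicate 3 was the lowest of its group but above all 12 h arrays. HARS1 (histidine) fell by 0.68 ± 0.12 and KARS1 (lysine), which also serves mitochondria, by 0.23 ± 0.06. With 1 array left out, 7 to 11 of them were called higher, 7 without any single 12 h array or 48 h replicate 2. XPOT, the exporter of tRNA from the nucleus, is listed with the ATF4 genes and rose by 1.22 ± 0.14. WARS1 was not called on leaving out any single 12 h array or 48 h replicate 2 (adjusted p up to 0.0932). KARS1 was not called on leaving out any single 12 h array or 48 h replicate 1 or 2 (adjusted p up to 0.102).

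Genes of the unfolded protein response stood higher at 48 h, to a degree that differed between the 48 h arrays. All 24 measured members of 25 had a higher mean, with a median of 1.47, but 10 passed the test and none was called lower. Their mean level relative to 12 h was 2.26, 1.69 and 0.44 on 48 h replicates 1, 2 and 3. Without replicate 3, 23 of 24 were called higher, and without any other 1 array 3 to 6 were.

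Among the sensors, ERN1 (IRE1), the kinase and RNase that splices XBP1 mRNA, stood at 6.52, 6.54 and 6.08 at 12 h and 10.35, 10.61 and 9.34 at 48 h and rose by 3.72 ± 0.33 (adjusted p = 0.00205). XBP1 itself rose by 2.01 ± 0.19, with values of 9.88, 9.50 and 9.78 at 12 h and 11.83, 12.02 and 11.34 at 48 h, and ATF6 by 0.76 ± 0.22. CREB3L2, a membrane-bound factor related to ATF6, rose by 1.57 ± 0.49. The spread of the 48 h arrays was small beside the difference for ERN1 and XBP1. ATF6 and CREB3L2 were not called on leaving out any single 12 h array or 48 h replicate 1 or 2 (adjusted p up to 0.121 and 0.144).

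For degradation and export from the endoplasmic reticulum, HERPUD1 stood at 10.58, 9.79 and 10.32 at 12 h and 14.06, 13.74 and 12.01 at 48 h and rose by 3.04 ± 0.52 (adjusted p = 0.00747). SEL1L and EDEM1, which act on misfolded proteins, rose by 1.88 ± 0.52 and 1.28 ± 0.37, and SEC24D, a coat protein of export vesicles, by 1.44 ± 0.42. Among chaperones, HSPA5 (BiP) stood at 14.06, 13.23 and 13.82 at 12 h and 15.67, 15.54 and 14.56 at 48 h and rose by 1.55 ± 0.33 (adjusted p = 0.0142). DNAJB9, a cochaperone of HSPA5, rose by 3.14 ± 0.68, with values of 8.88, 8.35 and 8.62 at 12 h and 12.72, 12.54 and 9.99 at 48 h. For both genes 48 h replicate 3 was the lowest 48 h array and still above all 12 h arrays. Of the chaperones that did not pass, SDF2L1 had 48 h replicate 3 below all its 12 h arrays. It stood at 8.43, 7.41 and 8.03 at 12 h and 12.02, 10.97 and 7.37 at 48 h (difference 2.16 ± 1.09, adjusted p = 0.165, and 0.000999 without 48 h replicate 3). Without that array HYOU1 had an adjusted p of 0.00135, against 0.0797 with it (difference 1.79 ± 0.67). SEL1L and DNAJB9 were not called on leaving out any single 12 h array or 48 h replicate 2 (adjusted p up to 0.103 and 0.0633). EDEM1 and SEC24D were not called on leaving out any single 12 h array or 48 h replicate 1 or 2 (adjusted p up to 0.128 and 0.119). HSPA5 was not called on leaving out 12 h replicate 2 or 3 or 48 h replicate 2 (adjusted p up to 0.0576).

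The ER stress element, a CCAAT box and a CCACG box set 9 bases apart, is read by ATF6 and by spliced XBP1. It was in 2 of the 9 called members with a window, XBP1 and HSPA5 (22.2%), and in 5 of the 13 other members with one, against 0.0806% of all windows and 0.144% of those of tested genes. The 2 stretches are shown with the element in capitals, because they belong to a chaperone and a transcription factor that rose.
XBP1 promoter, chr22:28800583-28800642, minus strand: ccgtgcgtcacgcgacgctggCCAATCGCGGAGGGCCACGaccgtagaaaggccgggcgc
HSPA5 promoter, chr9:125241371-125241430, minus strand: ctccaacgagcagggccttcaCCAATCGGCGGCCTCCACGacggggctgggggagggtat

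Genes of DNA replication fell in control cells. Of 45 measured members of 46, 39 were called lower and 0 higher, with a median of -1.11. The mean level was -1.67, -1.22 and -0.86 on the 48 h arrays relative to 12 h, so that 48 h replicate 3 had the smallest drop. With 1 array left out the number called lower was 19 to 23 without any single 12 h array or 48 h replicate 2, 36 without 48 h replicate 1 and 41 without 48 h replicate 3.

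Origin licensing and firing factors held the largest falls. MCM10, which helps to activate the replicative helicase, stood at 8.88, 8.84 and 8.85 at 12 h and 4.72, 5.78 and 6.13 at 48 h and fell by 3.31 ± 0.34 (adjusted p = 0.00248). Its other probe sets differed by less, -1.84 and -2.22. ORC1, the largest subunit of the origin recognition complex, stood at 7.95, 7.94 and 8.15 at 12 h and 3.59, 4.91 and 6.28 at 48 h and fell by 3.09 ± 0.60 to under 5. The helicase subunits MCM2 to MCM7 fell by 1.04 to 1.36. Cyclins E1 and E2, which drive entry into S phase, fell by 2.25 ± 0.15 and 2.67 ± 0.20, with CCNE2 at 9.81, 9.78 and 9.71 at 12 h and 6.92, 6.83 and 7.54 at 48 h. CDC6, a licensing factor, differed by 0.31 ± 0.56 and did not pass. ORC1 and MCM7 were not called on leaving out 12 h replicate 3 (adjusted p up to 0.0502 and 0.0509). MCM2, MCM4, MCM5 and MCM6 were not called on leaving out any single 12 h array or 48 h replicate 2 (highest adjusted p 0.0627 to 0.0795).

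Among replication enzymes, RRM2, the regulated subunit of ribonucleotide reductase, fell by 2.11 ± 0.30, with values of 13.51, 13.66 and 13.38 at 12 h and 10.73, 11.45 and 12.05 at 48 h. The clamp PCNA fell by 1.14 ± 0.26, and UHRF1, which maintains DNA methylation at replication forks, by 2.02 ± 0.35. ASF1B, a histone chaperone, fell by 2.20 ± 0.32. The factor E2F1 fell less, by 0.62 ± 0.13. Of the members that did not pass, PRIM1 and RFC2 differed by -0.19 ± 0.12 and -0.29 ± 0.15. PCNA and E2F1 were not called on leaving out any single 12 h array or 48 h replicate 2 (adjusted p up to 0.0656 and 0.0607).

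Genes of G2 and mitosis fell with them. All 40 members were measured, and 37 were called lower and 1, CDC25B (0.47 ± 0.12), higher, with a median of -1.18. Their mean level was -1.69, -1.21 and -0.60 on the 48 h arrays, again with the smallest drop on 48 h replicate 3. The number called lower was 13 or 14 without any single 12 h array or 48 h replicate 2, 34 without 48 h replicate 1 and 39 without 48 h replicate 3. PLK1, a mitotic kinase, fell by 1.99 ± 0.58, with values of 8.85, 9.30 and 9.42 at 12 h and 6.09, 6.90 and 8.60 at 48 h. ANLN, a scaffold of the cleavage furrow, fell by 1.66 ± 0.38, KIF20A, a kinesin of cytokinesis, by 1.65 ± 0.28, and the survivin gene BIRC5 by 1.67 ± 0.26. FOXM1, a factor that drives this programme, fell by 1.63 ± 0.30. CDK1, the mitotic kinase, fell by 0.99 ± 0.27, its partner CCNB1 by 1.18 ± 0.26, and the proliferation marker MKI67 by 1.36 ± 0.32. CENPF and CDC25C differed by -1.05 ± 0.34 and -0.56 ± 0.22 and did not pass. CDC25B was not called on leaving out 12 h replicate 1 or 3 or 48 h replicate 2 (adjusted p up to 0.0955). PLK1 was not called on leaving out any single 12 h array or 48 h replicate 1 or 2 (adjusted p up to 0.12). ANLN, CDK1, CCNB1 and MKI67 were not called on leaving out any single 12 h array or 48 h replicate 2 (highest adjusted p 0.0637 to 0.101).

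Regulators of the G1 phase moved both ways. Against 16.6% each way over all genes, 5 of 15 measured members of 16 were higher and 4 lower. With 1 array left out, 2 to 5 were called higher and 2 to 5 lower. The kinase inhibitors CDKN1A (p21), CDKN1C (p57) and CDKN1B (p27) rose by 1.18 ± 0.25, 1.07 ± 0.17 and 0.55 ± 0.11. CCND1, cyclin D1, stood at 9.62, 9.99 and 9.86 at 12 h and 6.87, 7.28 and 8.55 at 48 h and fell by 2.26 ± 0.40 (adjusted p = 0.0086). CCND3, CDK6 and CDK2 fell by 1.16 ± 0.20, 1.15 ± 0.23 and 1.05 ± 0.26, while CDK4 rose by 0.42 ± 0.09. SKP2, the ubiquitin ligase subunit that marks CDKN1B for destruction, stood at 10.23, 10.34 and 10.23 at 12 h and 7.52, 6.84 and 8.27 at 48 h and fell by 2.73 ± 0.33 (adjusted p = 0.00334). For CCND1 and SKP2 the 48 h arrays lay wholly below the 12 h arrays. The arrays of the 2 times did not overlap for 50.8% of all genes, and for SKP2 this was part of the rule that picked it. CDKN1A was not called on leaving out 12 h replicate 2 or 48 h replicate 2 (adjusted p up to 0.0551). CDKN1B was not called on leaving out 12 h replicate 1 or 3 (adjusted p up to 0.0568). CDK6 was not called on leaving out 12 h replicate 1 (adjusted p up to 0.0521). CDK2 was not called on leaving out any single 12 h array or 48 h replicate 2 (adjusted p up to 0.0864). CDK4 was not called on leaving out 12 h replicate 2 or 3 or 48 h replicate 2 (adjusted p up to 0.0621).

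Elements known from promoters of these programmes were counted in the windows of both groups. The core of the cell cycle homology region, TTTGAA, was in 22 of the 31 lower mitosis genes with a window (71.0%), against 15.4% of all windows and 9.53% of those of tested genes. The E2F site TTTNNCGC was in 19 of the 32 lower replication genes with a window (59.4%), against 6.9% and 11.1%. These shares were counted and not tested. Stretches before the start are shown with the matches in capitals, for 3 mitosis genes that carry out or trigger chromosome separation and cell division, and for 3 replication genes that fell by 1.29 ± 0.24, 1.19 ± 0.27 and 1.14 ± 0.26.
CDC20 promoter, chr1:43358776-43358835, plus strand: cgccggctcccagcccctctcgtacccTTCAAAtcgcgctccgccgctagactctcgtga
TOP2A promoter, chr17:40418037-40418096, minus strand: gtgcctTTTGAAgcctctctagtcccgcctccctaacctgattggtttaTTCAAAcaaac
KIF23 promoter, chr15:69414267-69414326, plus strand: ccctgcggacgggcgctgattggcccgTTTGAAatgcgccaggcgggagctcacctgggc
MCM3 promoter, chr6:52284871-52284930, minus strand: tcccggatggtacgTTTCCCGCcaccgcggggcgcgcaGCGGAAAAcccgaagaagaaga
MCM6 promoter, chr2:135876560-135876619, minus strand: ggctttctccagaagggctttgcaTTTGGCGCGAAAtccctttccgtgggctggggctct
PCNA promoter, chr20:5126648-5126707, minus strand: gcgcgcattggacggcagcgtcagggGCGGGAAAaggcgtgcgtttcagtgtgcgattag

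Tubulins and histones, whose demand rises in dividing cells, were lower in part. Of 14 measured tubulins of 15, 8 were called lower and 1 higher, with a median of -0.86. TUBB6, TUBA4A, TUBB4B and TUBB3 fell by 1.57 ± 0.21, 1.48 ± 0.33, 1.31 ± 0.22 and 1.16 ± 0.25. TUBE1, epsilon tubulin of the centriole, stood at 7.48, 6.62 and 7.18 at 12 h and 10.01, 10.11 and 9.72 at 48 h and rose by 2.85 ± 0.23 (adjusted p = 0.00168). The number of tubulins called lower was 2 or 3 without any single 12 h array or 48 h replicate 2 and 11 without 48 h replicate 3. Of 12 measured histone and nucleosome-binding genes of 19, 6 were called lower, among them H2AX (-1.24 ± 0.17), and 1 higher. The exception was H2AC6 (3.48 ± 0.75), an H2A gene, whose 12 h mean lay under 5. The histone genes called lower numbered 2 to 4 without any single array but 48 h replicate 3, and 8 without that one. TUBA4A and TUBB3 were not called on leaving out any single 12 h array or 48 h replicate 2 (adjusted p up to 0.0685 and 0.0623). H2AC6 was not called on leaving out 12 h replicate 2 or 3 or 48 h replicate 2 (adjusted p up to 0.0617).

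**Figure D3:**
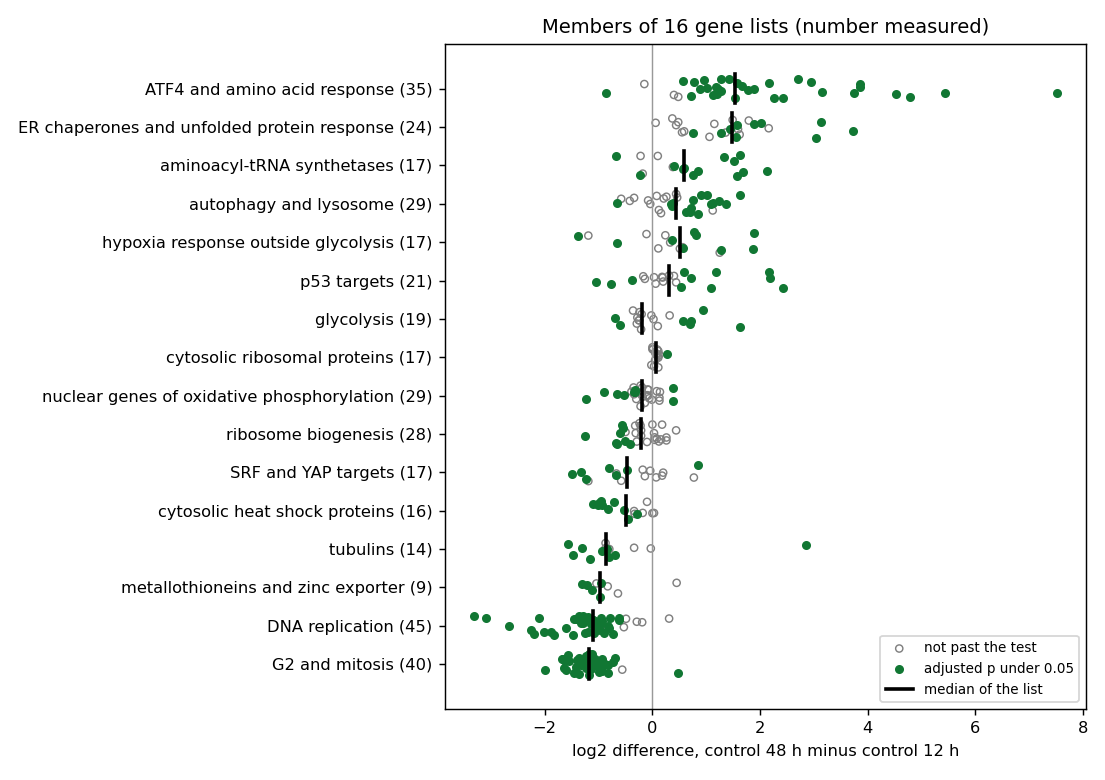
Change with time in control cells (x axis, log2 difference of 48 h minus 12 h) of each measured member of 16 gene lists (rows), with called genes filled, other genes open and a bar at the list's median. Medians run from 1.53 for ATF4 genes to -1.18 for mitosis genes, and ribosomal proteins lie close to 0.

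The largest fall of all was that of TXNIP, an arrestin that inhibits thioredoxin and glucose uptake and whose gene answers to glucose through the MondoA factor. It stood at 8.36, 8.76 and 9.31 at 12 h and 3.41, 3.17 and 3.89 at 48 h, a difference of -5.32 ± 0.29 (adjusted p = 0.00105). All 48 h arrays lie under 5 log2 units, so the size depends on the background model. MLXIP, which encodes MondoA, fell by 1.03 ± 0.23, and the related arrestin ARRDC3 differed by 0.40 ± 0.26 and did not pass. The letters CACGNG, shared by each part of the carbohydrate response element, were found 4 times in the TXNIP window; 30.4% of all windows and 43.3% of those of tested genes hold them. This motif was chosen after the value of TXNIP was seen. The stretch with 3 of the matches in capitals is shown because the gene fell most. MLXIP was not called on leaving out any single 12 h array (adjusted p up to 0.0675).
TXNIP promoter, chr1:145996619-145996678, minus strand: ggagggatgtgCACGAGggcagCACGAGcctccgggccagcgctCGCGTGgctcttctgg

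The glucose transporters SLC2A3 and SLC2A1 rose by 1.63 ± 0.18 and 0.94 ± 0.14 while the glycolytic enzymes split. SLC2A3 stood at 8.87, 8.60 and 8.22 at 12 h and 10.06, 10.21 and 10.29 at 48 h. Of 19 measured glycolysis genes of 22, 5 were higher and 2 lower, against 16.6% each way over all genes, with a median of -0.20. ENO2, PDK1 and HK2 rose by 0.71 ± 0.18, 0.70 ± 0.15 and 0.56 ± 0.12, whereas PKM and PGAM1 fell by 0.69 ± 0.14 and 0.61 ± 0.16. Among hypoxia-response genes outside glycolysis, 7 of 17 measured of 20 rose and 2 fell, against the same 16.6%, with a median of 0.51. NDRG1, ADM (adrenomedullin) and MXI1 rose by 1.88 ± 0.30, 1.86 ± 0.21 and 1.27 ± 0.25, and the oxygen sensors EGLN3 and EGLN1 fell by 1.38 ± 0.36 and 0.66 ± 0.11. Without 48 h replicate 3, 8 glycolysis genes were called lower, and with another array left out 0 or 1. ENO2 was not called on leaving out any single 12 h array (adjusted p up to 0.083). PDK1 was not called on leaving out 12 h replicate 1 or 2 (adjusted p up to 0.0597). HK2 was not called on leaving out 12 h replicate 1 or 3 or 48 h replicate 2 (adjusted p up to 0.0645). PKM was not called on leaving out 12 h replicate 2 or 3 (adjusted p up to 0.0525). PGAM1 and EGLN3 were not called on leaving out any single 12 h array or 48 h replicate 1 or 2 (adjusted p up to 0.0941 and 0.0941).

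Stress programmes other than ATF4 did not all rise. Of 9 measured metallothionein-related genes of 10, 5 metallothioneins, which bind zinc and copper, were lower and 0 higher, with a median of -0.97. MT2A stood at 14.34, 14.42 and 14.55 at 12 h and 13.23, 13.07 and 14.14 at 48 h (difference -0.96 ± 0.26), with 48 h replicate 3 close to the 12 h arrays. The mean level of the list was -1.11, -1.20 and -0.22 on the 48 h arrays, and 0 or 1 of its members were called lower without any single array but 48 h replicate 3 and 7 without that one. Cytosolic heat shock proteins fell in 10 of 16 measured genes of 21 and none rose, with a median of -0.49. DNAJA1, DNAJB1 and HSPE1 fell by 1.11 ± 0.09, 1.01 ± 0.15 and 1.00 ± 0.16, and HSP90AA1 by 0.83 ± 0.08. The mean level of that list was -0.55, -0.53 and -0.56, nearly equal on the 48 h arrays, and 8 to 11 were called lower with 1 array left out. MT2A was not called on leaving out any single 12 h array or 48 h replicate 1 or 2 (adjusted p up to 0.104).

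Of 21 measured NRF2 targets of 26, the antioxidant set, 6 were called higher and 3 lower, against 16.6% each way over all genes. Without 48 h replicate 3 the counts were 5 and 6, and with another array left out 3 to 7 and 1 or 2. SLC7A11 belongs to this list too and was its largest rise. GCLC, which limits glutathione synthesis, rose by 0.94 ± 0.16 and the NRF2 gene NFE2L2 by 0.90 ± 0.16. TXN, PRDX1 and KEAP1, the inhibitor of NRF2, fell by 0.51 ± 0.08, 0.57 ± 0.18 and 0.58 ± 0.13. NQO1, a standard NRF2 target, differed by 0.00 ± 0.19, and HMOX1 by 0.84 ± 0.32 without passing. PRDX1 was not called on leaving out any single 12 h array or 48 h replicate 1 or 2 (adjusted p up to 0.142). KEAP1 was not called on leaving out 12 h replicate 1 or 3 (adjusted p up to 0.0697).

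Genes for making ribosomes fell in part. Of 28 measured of 33 members of the ribosome biogenesis list, 8 fell and 0 rose, with a median of -0.21. Over all genes 16.6% were called each way. LYAR, a nucleolar protein, fell by 1.25 ± 0.12, and RRP1B, POLR1A and NOLC1 by 0.68 ± 0.18, 0.65 ± 0.21 and 0.60 ± 0.10. MYC, which drives this programme, differed by 0.04 ± 0.24 and did not pass. Between 3 and 6 members were called lower with 1 array left out. Cytosolic ribosomal proteins, 17 measured of 25, had a median of 0.07 and 1 call, RPL3 (0.27 ± 0.06). Of 29 measured nuclear genes of oxidative phosphorylation of 33, 7 fell and 2 rose, against the same 16.6% each way. ATP5MC1 and ATP5MC3, which encode subunit c of ATP synthase, fell by 1.23 ± 0.30 and 0.66 ± 0.18, and NDUFB3 of complex I by 0.89 ± 0.23. NDUFB5 and NDUFS1 rose by 0.39 ± 0.08 and 0.38 ± 0.10. The number of these genes called lower was 0 or 1 without any single array but 48 h replicate 3, and 14 without that one. RRP1B was not called on leaving out any single 12 h array (adjusted p up to 0.0965). POLR1A was not called on leaving out any single 12 h array or any single 48 h array (adjusted p up to 0.151). RPL3 was not called on leaving out 12 h replicate 1 or 3 or 48 h replicate 2 (adjusted p up to 0.073). ATP5MC1, ATP5MC3 and NDUFB3 were not called on leaving out any single 12 h array or 48 h replicate 1 or 2 (highest adjusted p 0.084 to 0.106). NDUFB5 was not called on leaving out 12 h replicate 1 or 3 (adjusted p up to 0.0583). NDUFS1 was not called on leaving out any single 12 h array or 48 h replicate 1 (adjusted p up to 0.0923).

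Lipid genes were called at shares on either side of the 33.2% over all genes. In cholesterol synthesis 2 of 17 measured of 23 rose, STARD4 (1.29 ± 0.30) and HSD17B7 (0.68 ± 0.15), and 2 fell, EBP (-1.16 ± 0.22) and NSDHL (-0.53 ± 0.17). In cholesterol synthesis 5 genes were called lower without 48 h replicate 3. In fatty acid synthesis, 2 of 10 measured of 12 rose and 2 fell, the elongases ELOVL6 and ELOVL5 by 1.32 ± 0.36 and 0.35 ± 0.11. Of 12 measured genes of 15 for fatty acid oxidation, 2 rose, PLIN2 of lipid droplets by 0.84 ± 0.17 and HADHB by 0.35 ± 0.11. STARD4 was not called on leaving out 12 h replicate 2 or 3 or 48 h replicate 1 or 2 (adjusted p up to 0.0776). HSD17B7 was not called on leaving out 12 h replicate 2 or 3 or 48 h replicate 2 (adjusted p up to 0.0724). NSDHL was not called on leaving out any single 12 h array or 48 h replicate 1 or 3 (adjusted p up to 0.161). ELOVL6 was not called on leaving out any single 12 h array or 48 h replicate 2 (adjusted p up to 0.106). ELOVL5 and HADHB were not called on leaving out any single 12 h array or 48 h replicate 1 or 2 (adjusted p up to 0.144 and 0.149). PLIN2 was not called on leaving out 12 h replicate 2 (adjusted p up to 0.0521).

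Genes of autophagy and the lysosome rose in part. Of 29 measured members of 33, 15 were higher and 1, GLA, lower, with a median of 0.44. MAP1LC3B, which coats autophagosomes, stood at 11.73, 11.53 and 11.64 at 12 h and 13.01, 13.09 and 12.49 at 48 h and rose by 1.23 ± 0.16 (adjusted p = 0.00408). The cargo receptor SQSTM1 rose by 0.91 ± 0.18, WIPI1, which acts early in autophagosome formation, by 1.63 ± 0.42, GABARAPL1 by 1.12 ± 0.13 and the cholesterol exporter of lysosomes NPC1 by 1.37 ± 0.17. GLA, alpha-galactosidase, fell by 0.66 ± 0.19. The 3 arrays of each time kept together, with mean levels of 0.57, 0.47 and 0.40 at 48 h. With 1 array left out, 7 to 17 members were called higher, the lowest count without 12 h replicate 3. GLA was not called on leaving out any single 12 h array or 48 h replicate 1 or 2 (adjusted p up to 0.12). SQSTM1 was not called on leaving out 12 h replicate 3 (adjusted p up to 0.0504). WIPI1 was not called on leaving out any single 12 h array or 48 h replicate 2 (adjusted p up to 0.0932).

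Targets of p53 were higher in 8 of 21 measured of 25 and lower in 3, against 16.6% each way over all genes. Their median was 0.31. With 1 array left out, 6 to 8 were called higher and 1 or 2 lower. Those with the largest rises, GDF15, GADD45A (2.19 ± 0.20) and SESN2, also belong to stress responses outside p53. MDM2 rose by 0.53 ± 0.15 and TP53I3 fell by 1.04 ± 0.12. Of 15 measured FOXO targets of 23, 6 rose and 2 fell, TXNIP and IGFBP3 (-1.18 ± 0.33), against the same 16.6% each way. KLHL24, a ubiquitin ligase adaptor, rose by 2.50 ± 0.24, and its other 3 probe sets differed by 2.56, 2.35 and 0.11. CITED2, YPEL5, YPEL2 and CCNG2 rose by 0.95 ± 0.24, 0.93 ± 0.18, 0.85 ± 0.14 and 0.82 ± 0.10. MDM2 was not called on leaving out any single 12 h array or 48 h replicate 1 (adjusted p up to 0.112). IGFBP3 was not called on leaving out 12 h replicate 2 or 3 or 48 h replicate 1 or 2 (adjusted p up to 0.105). CITED2 was not called on leaving out any single 12 h array or 48 h replicate 2 (adjusted p up to 0.0869).

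Few markers of the proximal tubule were measured, 12 of 39, and 3 of them rose and 2 fell, against 16.6% each way over all genes. MIOX, which breaks down inositol and is made mainly in the proximal tubule, stood at 8.68, 8.47 and 8.35 at 12 h and 10.30, 10.17 and 9.56 at 48 h and rose by 1.51 ± 0.21 (adjusted p = 0.0044). SLC4A4, the basolateral bicarbonate carrier, rose by 1.04 ± 0.18. PCK2, the mitochondrial carboxykinase, which ATF4 also drives, rose by 2.14 ± 0.30. ABCB1, the drug exporter, and SLC22A5, the carnitine carrier, fell by 0.52 ± 0.11 and 0.86 ± 0.18. PAX8, a kidney lineage factor, differed by 0.24 ± 0.13 and did not pass. ABCB1 was not called on leaving out 12 h replicate 1 or 3 (adjusted p up to 0.061).

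Of 23 measured genes of 30 in a list tied to kidney tubule injury, 4 were called higher and 6 lower, against 16.6% each way over all genes. SOX9, a factor of repairing tubule cells, stood at 8.78, 8.92 and 8.36 at 12 h and 4.63, 5.29 and 5.56 at 48 h and fell by 3.53 ± 0.27 (adjusted p = 0.0015). VCAM1, an adhesion molecule, fell by 2.04 ± 0.27, while KRT20, a keratin of injured tubules, rose by 2.03 ± 0.36, with values of 5.51, 5.04 and 4.44 at 12 h and 7.04, 6.46 and 7.59 at 48 h. The injury marker HAVCR1 (KIM-1) differed by -0.48 ± 0.26 without passing. Without 48 h replicate 3, 12 were called lower, and 2 or 3 without 48 h replicate 2 or any single 12 h array. In the list of epithelial junctions, 4 of 26 measured of 32 rose and 3 fell, shares no higher than the 16.6% each way over all genes. Without 48 h replicate 3, 9 junction genes were called higher and 5 lower, and with another array left out 0 to 3 and 0 to 2. The tight junction genes CLDN2 and OCLN moved oppositely (-2.08 ± 0.65 and 1.24 ± 0.39), and the mesenchymal cadherin CDH2 fell by 0.81 ± 0.17. CDH1, the epithelial cadherin, differed by 1.29 ± 0.43 (adjusted p = 0.0579). CLDN2 and OCLN were not called on leaving out any single 12 h array or 48 h replicate 1 or 2 (adjusted p up to 0.14 and 0.14). CDH2 was not called on leaving out 12 h replicate 1 or 3 (adjusted p up to 0.0569).

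Among growth factor and matrix genes, FOSL1, an AP-1 subunit raised by ERK signalling, stood at 8.43, 8.0 and 8.64 at 12 h and 4.95, 5.74 and 6.34 at 48 h and fell by 2.68 ± 0.35 (adjusted p = 0.00408). It was 1 of 3 members that fell among 22 measured of 28 in the ERK list, where 1 rose (ETV5, 0.62 ± 0.16). Over all genes 16.6% were called each way, a larger share than in this list in either direction. The ERK phosphatase DUSP6 and the early gene EGR1 differed by 0.06 ± 0.23 and -0.09 ± 0.57 and did not pass. Of 17 measured SRF and YAP targets of 22, 6 fell, with F3 (tissue factor), VCL (vinculin) and MYL9 lower by 1.49 ± 0.23, 1.32 ± 0.35 and 1.23 ± 0.32, and AJUBA rose by 0.84 ± 0.15. The SRF and YAP targets called lower were 9 without 48 h replicate 3, and with another array left out 3 to 6. In the list of TGF-beta response and matrix, 5 of 25 measured of 33 rose and 6 fell, near the 16.6% each way over all genes. The members called lower were 11 without 48 h replicate 3 and 1 to 3 with another array left out. CTHRC1, a secreted collagen regulator, ID1, a BMP and TGF-beta target, and the collagenase MMP1 fell by 2.02 ± 0.40, 1.92 ± 0.41 and 1.56 ± 0.37. LAMB1 and PLOD2 rose by 0.86 ± 0.10 and 0.82 ± 0.13. ETV5 was not called on leaving out 12 h replicate 2 or 3 or 48 h replicate 1 or 2 (adjusted p up to 0.0774). VCL was not called on leaving out any single 12 h array or 48 h replicate 2 (adjusted p up to 0.0944). MYL9 was not called on leaving out 12 h replicate 1 or 3 or 48 h replicate 2 (adjusted p up to 0.0966). CTHRC1 was not called on leaving out 12 h replicate 3 (adjusted p up to 0.0516). ID1 was not called on leaving out 12 h replicate 2 or 3 or 48 h replicate 2 (adjusted p up to 0.0631). MMP1 was not called on leaving out 12 h replicate 1 or 3 or 48 h replicate 1 or 2 (adjusted p up to 0.0768).

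Among inflammatory genes 4 of 17 measured of 30 fell and 0 rose, against 16.6% each way over all genes. Without 48 h replicate 3, 6 were called lower. CXCL5, a neutrophil chemokine, stood at 9.36, 9.28 and 9.90 at 12 h and 6.30, 6.92 and 7.56 at 48 h and fell by 2.59 ± 0.33 (adjusted p = 0.00373). IL32 fell by 1.04 ± 0.19. CXCL8 and IL6 differed by 0.00 ± 0.25 and -1.51 ± 0.57 and did not pass. Of 23 measured interferon-stimulated genes of 34, 4 were called higher and 4 lower, about the 16.6% each way over all genes. Without 48 h replicate 3 the counts were 6 and 6, and with another array left out 0 to 2 and 1 to 3. The list's median was 0.01, and its sign changed under 8 of 18 alternatives. IRF1 and IRF9 rose by 1.33 ± 0.33 and 0.82 ± 0.23, and OAS3 and GBP1 fell by 1.82 ± 0.25 and 1.48 ± 0.42. IRF1 was not called on leaving out any single 12 h array or 48 h replicate 2 (adjusted p up to 0.0814). IRF9 and GBP1 were not called on leaving out any single 12 h array or 48 h replicate 1 or 2 (adjusted p up to 0.113 and 0.116).

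Of the 15 largest rises, 6 were outside the lists. PLA1A, a phospholipase that acts on phosphatidylserine, stood at 2.46, 3.30 and 2.46 at 12 h and 8.14, 7.54 and 6.33 at 48 h and rose by 4.59 ± 0.47 (adjusted p = 0.00248). ARG2, the mitochondrial arginase of the kidney, stood at 9.30, 9.00 and 9.47 at 12 h and 13.57, 12.74 and 11.51 at 48 h and rose by 3.35 ± 0.47. LURAP1L, ANK2 (ankyrin-B, a membrane scaffold) and SLC22A15, of the organic ion transporter family, rose by 3.81 ± 0.44, 3.39 ± 0.39 and 3.27 ± 0.29. CLIP4, related to proteins of microtubule ends, rose by 3.38 ± 0.38. Absence of overlap between the arrays of the 2 times was part of the rule that picked these 6. PLA1A and CLIP4 had 12 h means under 5.

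Of the 15 largest falls, SKP2 and 7 others were outside the lists. SLN, sarcolipin, a small inhibitor of the calcium pump, stood at 10.06, 9.47 and 10.39 at 12 h and 3.26, 3.85 and 8.12 at 48 h, so that its 48 h arrays spread over a wide range (difference -4.90 ± 1.18, adjusted p = 0.0214). TNFAIP6, a hyaluronan-binding protein of inflamed tissue, stood at 8.13, 8.61 and 9.31 at 12 h and 3.12, 3.36 and 5.17 at 48 h and fell by 4.80 ± 0.57 to under 5. NAV3, a microtubule-binding protein, fell by 3.70 ± 0.62, also to under 5. DPYSL3, a cytoskeletal phosphoprotein, LRRN4, a leucine-rich repeat membrane protein, ZBED2, a zinc finger factor, and TNFRSF19, a receptor of the TNF receptor family, fell by 2.87 ± 0.25, 2.68 ± 0.42, 2.88 ± 0.27 and 2.67 ± 0.58. SLN and TNFRSF19 were not called on leaving out any single 12 h array or 48 h replicate 2 (adjusted p up to 0.079 and 0.0652).

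The change with time in control cells was set against that in Ra-treated cells, which shares no array with it. In Ra-treated cells 0 genes changed between 12 h and 48 h at an adjusted p under 0.05 (limma on 12 arrays, 1562 genes at an unadjusted p under 0.05, lowest adjusted p 0.0662). The Ra 48 h arrays spread more, with a median gene SD of 0.43, so a gene called in control cells and not there is not thereby shown to differ. The test of the difference itself called 2 of 10050 genes (0.0199%), and 1933 had an unadjusted p under 0.05. C5AR1, the receptor of complement C5a, stood in control cells at 3.39, 3.11 and 3.36 at 12 h and 6.82, 5.89 and 5.62 at 48 h and with Ra at 4.80, 4.93 and 4.62 at 12 h and 4.01, 3.39 and 3.01 at 48 h. The control change exceeded the Ra change by 4.13 ± 0.44 (adjusted p = 0.00523). CLIP4 stood in control cells at 2.69, 2.74 and 2.65 at 12 h and 6.90, 6.05 and 5.27 at 48 h and with Ra at 2.69, 2.69 and 2.72 at 12 h and 2.68, 2.73 and 2.69 at 48 h, a difference of changes of 3.38 ± 0.43 (adjusted p = 0.0183). The low arrays of both genes lie under 5, where the background model sets level and spread. Both genes passed the filter only through the 3 control 48 h arrays, so being tested required all of these to be high. C5AR1 was called whichever 1 array was left out, but these fits kept the genes filtered on all 12 arrays. Had the filter been redone without a control 48 h array, neither gene would have been tested. CLIP4 was not called without any single 12 h array of either treatment, control 48 h replicate 2 or Ra 48 h replicate 3. The count depended on the arrays, with 572 genes called without control 48 h replicate 3, 1041 without Ra 48 h replicate 1, 320 without Ra 48 h replicate 2 and 1 or 2 without any other array.

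For the lists that led the control change, none of the members passed the test of the difference on the deposited values. After quantile normalization of 12 arrays, 18 of 35 ATF4, 21 of 45 DNA replication and 14 of 40 G2 and mitosis members were called. So were 6 of 24 unfolded protein response members, and 945 of all 10050 genes. Ra 48 h replicate 2 had a median of -0.649 against the control 12 h mean over all genes, and the Ra medians given here include that array. The 35 ATF4 genes had a median change of 1.53 in control cells and -0.15 in Ra-treated cells. Of these genes, 29 had an unadjusted p under 0.05 in the difference, and 13 were called without control 48 h replicate 3, 28 without Ra 48 h replicate 1 and 9 without Ra 48 h replicate 2. Their mean level on the Ra 48 h arrays was 1.26, -0.58 and -0.21 relative to control 12 h, so that replicate 1 was well above the others but below every control 48 h array. INHBE, which led the control rise, stood in Ra-treated cells at 5.59, 3.93 and 6.38 at 12 h and 9.54, 3.47 and 3.31 at 48 h, high on replicate 1 alone at 48 h. Its changes differed by 7.37 ± 1.84 (adjusted p = 0.103). For DNA replication the medians were -1.11 and -0.36, and 25 of 45 members had an unadjusted p under 0.05 in the difference, with 17 called without control 48 h replicate 3, 10 when Ra 48 h replicate 1 was left out, and 5 when replicate 2 was. For the unfolded protein response list they were 1.47 and -0.18, with 18 of 24. Of the 24 members, 19 were called without control 48 h replicate 3, 7 when Ra 48 h replicate 1 was left out, and 1 when replicate 2 was. For G2 and mitosis the medians were -1.18 and -0.34, and 22 of 40 members had an unadjusted p under 0.05 in the difference. Of the 40 members, 18 were called without control 48 h replicate 3. Without Ra 48 h replicate 1 the count was 0, and without Ra 48 h replicate 2 it was 3.

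The genes next in the order of p, none past the test, included SULT1C2, a sulfotransferase of the kidney, at 2.72 ± 0.43, ENPEP, the aminopeptidase of angiotensin metabolism on the proximal tubule, at 1.59 ± 0.25, and NRSN2-AS1, an antisense RNA, at 2.05 ± 0.33. The counting of antisense RNA by these probes against its partner gene was not tested. On the other side stood SGK1, a kinase that regulates sodium transport, at -2.17 ± 0.35, MALL at -1.44 ± 0.29, the phosphatase CDC25A at -1.67 ± 0.36, LMNB2 (lamin B2) at -1.75 ± 0.39 and the folate carrier SLC19A1 at -1.22 ± 0.27. In control cells alone SGK1 fell by 2.07 ± 0.26, with values of 12.95, 13.05 and 13.37 at 12 h and 10.45, 11.43 and 11.27 at 48 h, and ENPEP rose by 1.22 ± 0.15.

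**Figure D4:**
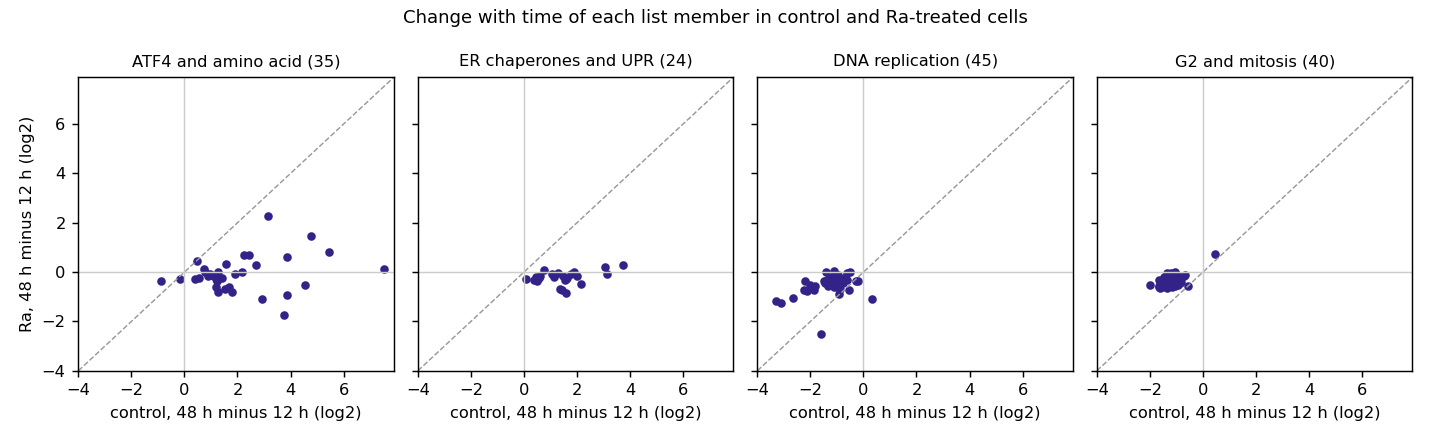
Change with time in Ra-treated cells (y axis, log2 difference of 48 h minus 12 h) against that in control cells (x axis, same unit) for the measured members of 4 gene lists, 1 point a gene, with the line of equal change dashed. Points of the ATF4 list reach 7.51 on the x axis while their median on the y axis is -0.15. The Ra change includes Ra 48 h replicate 2, which lay low over all genes.

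**Figure D5:**
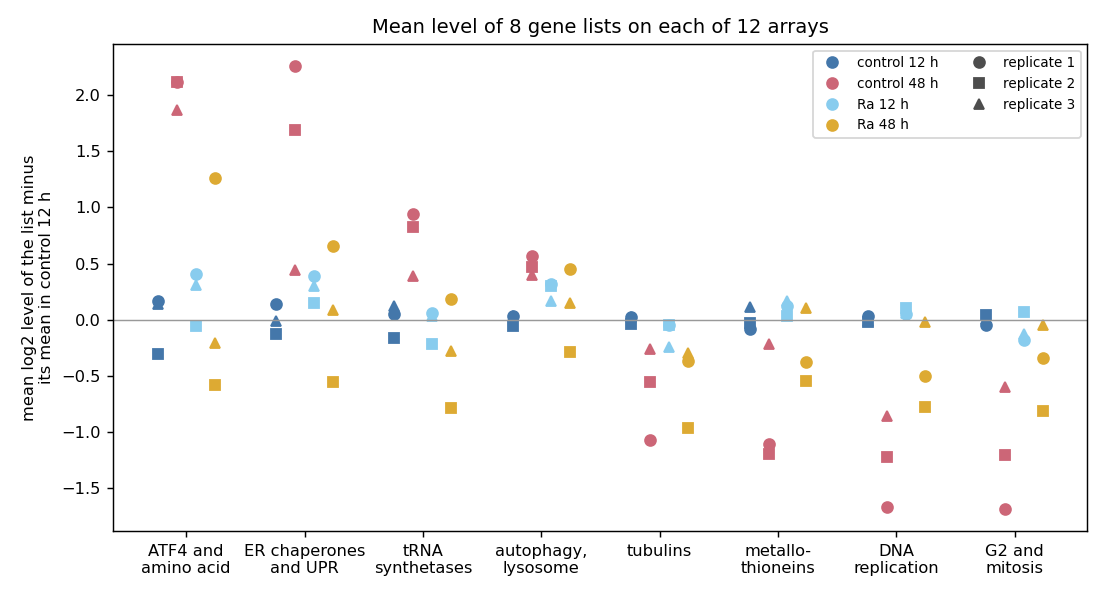
Mean log2 level of 8 gene lists on each of the 12 arrays (y axis), as the difference from the list's mean over the control 12 h arrays, by list (x axis), with a colour for each group and a symbol for each replicate number. Control 48 h arrays stand at 1.87 to 2.12 for ATF4 genes and at -0.86 to -1.67 for DNA replication, and replicate 3 lies nearest to 0 in each of the 8 lists shown.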

How the data were processed

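The deposited values are log2 levels made by the authors with GCRMA, per the submitters' processing notes; no source used here gives its version or names the arrays that were normalized together. GCRMA corrects background by probe sequence and compresses low signals, so values under about 5 log2 units depend on its background model. Of 54675 probe sets, 41097 had 1 gene symbol in the platform annotation, 1801 several and 11777 none there, and 41043 matched the RefSeq gene list. Those with 1 symbol and at least 3 of 12 arrays at 5 or more were kept (17339), and of each gene's probe sets the 1 highest on average over 12 arrays was used (10050 genes). No 2 arrays held identical values (0 pairs).

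Groups and replicate numbers came from the labels. A limma fit (version 3.58.1, R 4.3.3) took the 6 control arrays (lmFit, then eBayes with an intensity trend, 4 residual degrees of freedom), with Benjamini-Hochberg adjustment over all genes. The difference from Ra-treated cells was an interaction in a fit of 12 arrays. Fold changes are differences of means of log2 values, and errors after ± are standard errors of the fit unless called SD. Gene lists were described by counts and medians, without a set test. The members and lists were chosen with earlier results of these data known. Genes were named by rule: the 15 largest called rises and falls of at least 2-fold without overlap, up to 4 called members with the largest change in each list, GAPDH and ACTB, and up to 5 genes each way with the lowest p in the difference. Other genes named were chosen after their values were seen. The fits were tested on simulated data. Alternatives covered the filter, probe set choice, scaling, variance moderation, array weights, a replicate block and leaving out each array. The replicate numbers were checked for pairing: same-numbered control arrays deviated together with correlations of 0.025, -0.023 and 0.065.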

Additional observations from a re-analysis of the deposited data

Results flagged for a closer look

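C5AR1 and CLIP4 were singled out by the test of the difference between the change with time in control cells and that in Ra-treated cells (limma interaction on 12 arrays). For C5AR1 the control change exceeded the Ra change by 4.13 on the log2 scale (adjusted p = 0.00523), with a rise of 2.82 in control cells and a difference of -1.31 in Ra-treated cells. For CLIP4 the excess was 3.38 (adjusted p = 0.0183), with a rise of 3.38 in control cells and 0.00 in Ra-treated cells. For both genes all 3 control 48 h arrays lay above every control 12 h array. Entry to the test required this, because the filter asked for 3 arrays at 5 and no other array of either gene reached 5. Neither gene entered the fit with a filter at 7. On leaving out each of 12 arrays in turn, with the filter still that of all 12 arrays, the adjusted p of C5AR1 ranged from 0.000864 to 0.0342. The control 12 h means of both genes, 3.29 for C5AR1 and 2.69 for CLIP4, lie where the background model sets the level.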

How the results depend on the processing

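Of 141 named genes under 18 alternatives, 2192 combinations kept their side of the threshold, 330 kept the direction only and 3 newly passed. Among genes called in the main fit, 0 combinations changed direction. Direction was not compared for genes not called there, and GAPDH ranged from -0.07 to 0.02 on leaving out 1 array. The count of genes changed between 12 h and 48 h, 3334, was 1955 with a spread shared over 12 arrays, 2091 with no filter, 5788 with array weights per array and 1087 with a 2-fold minimum. It ranged from 3169 to 3440 under 8 other settings of filter, probe set choice, scaling and moderation. On leaving out 1 array it ranged from 1429 to 4583. The replicate block gave 2706 genes, of which 2581 were also called without it; the control arrays share only a number, and the correlations give no sign of pairing. For the difference between control and Ra, the count of 2 was 945 after quantile normalization, 5 with no filter, 43 with a filter at 7, 7 with array weights per group and 36 with the replicate block within each time. On leaving out 1 array it ranged from 1 to 1041. The causes were not tested. List medians changed sign in 16 cases, all in lists with medians between -0.17 and 0.02, namely G1 regulators (2), ERK output (3), interferon genes (8) and TGF-beta response (3). Precision is limited by 3 arrays a group, and 69 called 2-fold rises had a 12 h mean, and 50 called 2-fold falls a 48 h mean, under 5.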

Other observations

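Of 14 measured genes of 22 in a list of the circadian clock, chosen after the rise of CIART was seen, 6 were called higher (16.6% over all genes) and 0 lower, with a median of 0.52. The 6 include CIART itself. The other 8 did not pass, and 4 of them had a lower mean at 48 h. CIART, a repressor of the clock, stood at 4.18, 3.76 and 4.24 at 12 h and 6.53, 7.10 and 7.24 at 48 h and rose by 2.90 ± 0.24, though its 12 h arrays lie under 5. BHLHE41 and NFIL3, repressors that act on clock genes, rose by 2.37 ± 0.19 and 2.17 ± 0.14, with NFIL3 at 9.45, 9.21 and 9.45 at 12 h and 11.33, 11.73 and 11.57 at 48 h. NR1D2, which represses BMAL1, rose by 1.99 ± 0.20, and CRY1, the partner of the PER proteins, by 0.53 ± 0.11. The activators BMAL1 and CLOCK differed by 0.63 ± 0.24 and -0.33 ± 0.15 and did not pass. For NFIL3, BHLHE41 and NR1D2 the arrays of the 2 times did not overlap, as for 50.8% of all genes. CRY1 was not called on leaving out any single 12 h array (adjusted p up to 0.0611).

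A list of subunits of RNA polymerase III and enzymes that process tRNA was chosen after the fall of POP1 was seen. Of its 16 measured genes 7 fell, POP1 among them, and 0 rose, with a median of -0.43. Over all genes 16.6% were called lower. POP1, the largest protein of RNase P and RNase MRP, stood at 8.23, 7.99 and 7.86 at 12 h and 4.78, 6.18 and 5.93 at 48 h and fell by 2.40 ± 0.35. Its partners POP5, POP4 and POP7 fell by 0.95 ± 0.13, 0.80 ± 0.14 and 0.64 ± 0.13, and the polymerase subunit POLR3K by 0.93 ± 0.12. The 48 h arrays of POP1 spread widely and still lay below all 12 h arrays. POP7 was not called on leaving out 12 h replicate 1 or 3 (adjusted p up to 0.0521).

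Among 100 further probe sets of 64 named genes, 4 had the opposite sign. These were a set of ELOVL5 at 0.10, a set of COX7B at 0.05 and 2 control sets of GAPDH at 0.04 and 0.05, all small differences. For RRP1B another probe set differed by -0.09.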
